A study of Mus musculus with 6 samples.

Results

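BTG4 and the CCR4-NOT complex remove the poly(A) tails of messenger RNAs that the egg has stored. The genes described here are Btg4 and 9 genes for subunits of the complex, Cnot1, Cnot2, Cnot3, Cnot6, Cnot6l, Cnot7, Cnot8, Cnot10 and Cnot11. They were chosen by gene symbol, each symbol matched 1 row, and the 10 rows stand among 55549 in each table. All 10 passed the filter on low counts and were tested. Mouse embryos at the early 2-cell stage had been sequenced as 3 control libraries and 3 libraries exposed to ethylparaben (EtP), a preservative ester of 4-hydroxybenzoic acid. EtP was present at 40 uM in the culture medium from 4 h after fertilization, and most exposed embryos arrested at this stage, per the series text. The labels used here state neither the genotype, the strain, the control medium, the embryos per library, the hour of collection nor whether the 3 libraries of a group are separate cultures. A p-value here therefore sets a difference against library-to-library spread that could be technical only.

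In the growing oocyte messenger RNAs are kept for later use, and many of them are cleared between meiotic maturation and the 2-cell stage. CCR4-NOT shortens their tails, which is the first step of decay, and BTG4, a protein made during oocyte maturation, binds the complex and brings it to maternal transcripts. CNOT1 is the scaffold, CNOT2 and CNOT3 form the NOT module, CNOT10 and CNOT11 bind the N-terminal part of CNOT1, and the nuclease sites are in CNOT6 or CNOT6L and in CNOT7 or CNOT8. Transcripts of the pathway are themselves stored by the egg, and short U-rich elements near their 3′ ends, cytoplasmic polyadenylation elements, are known to govern when such messages gain a tail and are translated.

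The 3′ ends are shown because the libraries were primed from poly(A) tails and because such elements govern tail length. In 1 annotated transcript per gene (GENCODE M21 on GRCm38), the last 150 bases were searched on the transcript strand for 2 forms of the element, TTTTAT and its variant TTTTAAT. The last 40 bases were searched for the polyadenylation signal, AATAAA or its variant ATTAAA. The variant element can share its last letters with the signal. An element was found in 4 of 9 members searched, and in 23.4% of 18541 protein-coding genes searched in the same way. Only genes with a 3′ untranslated region of at least 150 bases were taken for this share. The members searched had 283 to 6847 bases. A signal was found in 5 of 9 members and in 73.4% of those genes. No transcript of Cnot8 was annotated as protein-coding with a stop codon, a 3′ untranslated region and a mapped 3′ end. Cnot8 was therefore not searched. Capitals mark the element and, where it lies within the same 30 bases, the signal.
Btg4: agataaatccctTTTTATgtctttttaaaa
Cnot7: ttaaggtacaTTTTATatcAATAAAaatac
Cnot3: atttatgAATAAAtagTTTTATatgacggc
Cnot1: aagatgtattgaTTTTATatatgtgagtac
The windows lie in last exons at chr9:51119797-51119826 (plus strand) for Btg4, chr8:40493036-40493065 (minus) for Cnot7, chr7:3661075-3661104 (plus) for Cnot3 and chr8:95719504-95719533 (minus) for Cnot1. In Cnot7 the element starts 9 bases before the signal, in Cnot3 it follows the signal, and the annotated ends of Btg4 and Cnot1 had no signal in their last 40 bases. A match is a description of the letters and not a measured site. Each transcript was chosen by annotation, and the 3′ ends used in these embryos were not measured.

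The 6 libraries held 11173295 to 14737152 estimated counts each, with 25861 to 26004 genes detected in control and 19244 to 19613 in EtP. Levels are given as CPM, counts brought to a common library size with edgeR's TMM factors, and on log2 CPM the libraries correlated at 0.937 to 0.986 within a group and 0.894 to 0.926 across groups. The egg and early embryo markers that define this material were present and summed to 7521 to 11620 CPM in control and 24932 to 28007 CPM in EtP libraries, with 8 of 10 called higher and 0 lower. The 8 markers of genome activation at the 2-cell stage were all called lower. Of these, Tdpoz4, Zfp352 and Usp17lc had 0 to 4.23 counts per EtP library and passed the filter on low counts through the control libraries. Cumulus cell markers summed to 17.9 to 40.8 CPM in control and 17.4 to 19.5 in EtP, most of it Cyp19a1. Of the 4 that were tested 0 were called higher and 2 lower, Tnfaip6 and Fshr. These 2 had 0 to 8 counts per EtP library and likewise passed the filter through the control libraries. Ptx3 was at 0 in each library and Amhr2, Foxl2 and Inha at 0 in each EtP library. Sperm markers summed to 5.84 to 12.9 and 2.90 to 3.43 CPM, mostly Prm2, which was called lower, and Tnp1 was at 0. Markers of later embryos summed to 27.8 to 40.4 and 43.1 to 55.1 CPM, with Nanog called higher and Krt18 lower. Krt18 had 0, 1 and 0 counts in the EtP libraries. In such bulk libraries fewer cells of a type and less RNA per cell cannot be told apart.

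Among the 10 members, the deadenylase adaptor Btg4, the NOT-module subunit Cnot3 and the N-terminal subunit Cnot10 were higher in EtP embryos and none was lower, by edgeR's quasi-likelihood test with p-values adjusted over all genes (threshold 0.05). Over all 14373 genes tested, 12.5% were called higher and 18.1% lower, 30.6% in all, so that 3 of 10 members called is the share seen among genes at large. Without adjustment 4 members were higher and 1 lower at p below 0.05, DESeq2 called 5 higher and 0 lower, and limma-voom 3 and 0. With TMM scaling the members had a median log2 fold change of 0.39 where that of all tested genes was -0.19, and 9 of 10 were positive. The share of positive values over all tested genes was not computed. With library size alone the medians were -0.34 and -0.92, and with limma on log2(TPM + 1) -0.23 and -0.66. The sign of the members' median thus depended on the scaling. Oligo-dT priming reads polyadenylated RNA at 1 stage, so these values are levels and not rates of decay, and tail length was not measured.

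RNA composition differed between the groups, and several of these results changed with library size alone. The TMM factor of each control library was 1.20 to 1.39, and that of each EtP library 0.738 to 0.833. Scaling by library size alone shifted the median log2 fold change of all tested genes by -0.73. Cnot3 was then the 1 member called higher and Cnot11 the 1 called lower. With RLE or upper-quartile scaling in place of TMM, 3 members were higher and 0 lower, again Btg4, Cnot3 and Cnot10. For Btg4 the edgeR adjusted p was 0.0219 with RLE and 0.0405 with upper-quartile scaling. Relative to the median of all genes the values under TMM and library size were 1.79 and 1.77 for Cnot3 and 1.66 and 1.63 for Cnot10. For Btg4 they were 0.99 and 1.00, and for Cnot11 -0.71 and -0.73. A change of scaling moves all genes by nearly the same amount, so this near equality was fixed in advance and is no test of the calls. Egg markers were higher in the same EtP libraries, and their part in the members' values was not tested.

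**Figure D1:**
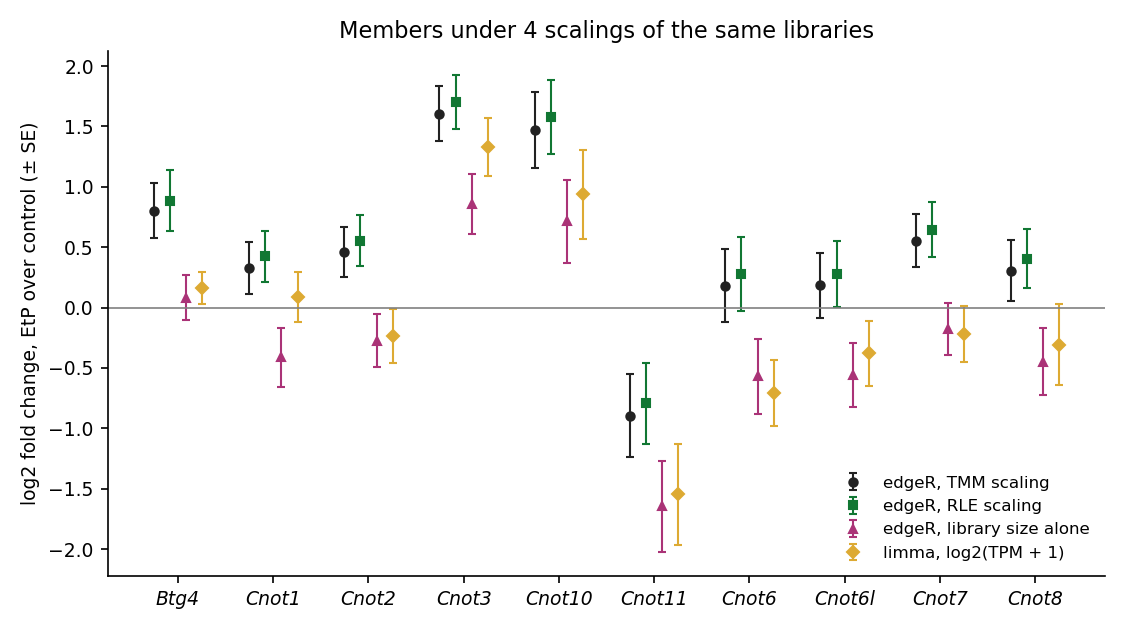
Log2 fold change of each member, EtP over control, with its standard error (vertical axis) under 4 treatments of the same 6 libraries (3 per group). Cnot3 lies above 0 and Cnot11 below 0 in all 4, while Btg4 falls from 0.80 with TMM to 0.08 with library size alone.

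Btg4 had the highest TPM of the members in every library. TPM, as deposited, is set for transcript length and sums to the same total in each library. In CPM, Btg4 had 5898, 5080.1 and 3645 CPM in control replicates 1 to 3 and 9091, 8562 and 7852 CPM in the EtP replicates. Each EtP library was above each control library on this scale, with means of 4875 ± 1141 and 8501 ± 622 CPM (SD, n = 3). The log2 fold change was 0.80 ± 0.23 (SE; edgeR adjusted p = 0.0223), a 1.74-fold difference. On the TPM scale the values were 5922, 6297 and 5230.4 in control and 6529, 6239 and 6734 in EtP. Of the 10 members 3 did not overlap between groups in TPM (Cnot3, Cnot6 and Cnot11), against 57.1% of tested genes. For Btg4 the groups overlapped, EtP replicate 2 lying below control replicate 2, and the change was 0.16 ± 0.13 on the log2(TPM + 1) scale (limma adjusted p = 0.324). Btg4 thus made up 0.582% ± 0.0541 of TPM in control and 0.650% ± 0.0249 in EtP (SD, n = 3), and it ranked 14 to 20 among all genes in control and 19 to 23 in EtP libraries. The call was lost with library size alone (edgeR adjusted p = 0.717), with a minimum of 10 CPM in 3 libraries (0.55 ± 0.22, edgeR adjusted p = 0.082), and on leaving out control replicate 2, or EtP replicate 1 or 2 (edgeR adjusted p = 0.0732, 0.0797 and 0.0639).

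Btg4 (ENSMUSG00000032056.10) lies on chromosome 9 from 51060901 to 51119875 of GRCm38 on the plus strand. Layn, 4833427G06Rik, Mir34b and Mir34c lie within its span on the other strand but share 0 exonic bases with it, and the 4 had at most 5 counts in any library. Its estimated mean transcript length, weighted by the transcripts' abundance, was 1474 to 1478 bases in control and 1482 to 1483 in EtP libraries. The longest of its 5 transcripts, Btg4-201, is 1486 bases long.

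**Figure D2:**
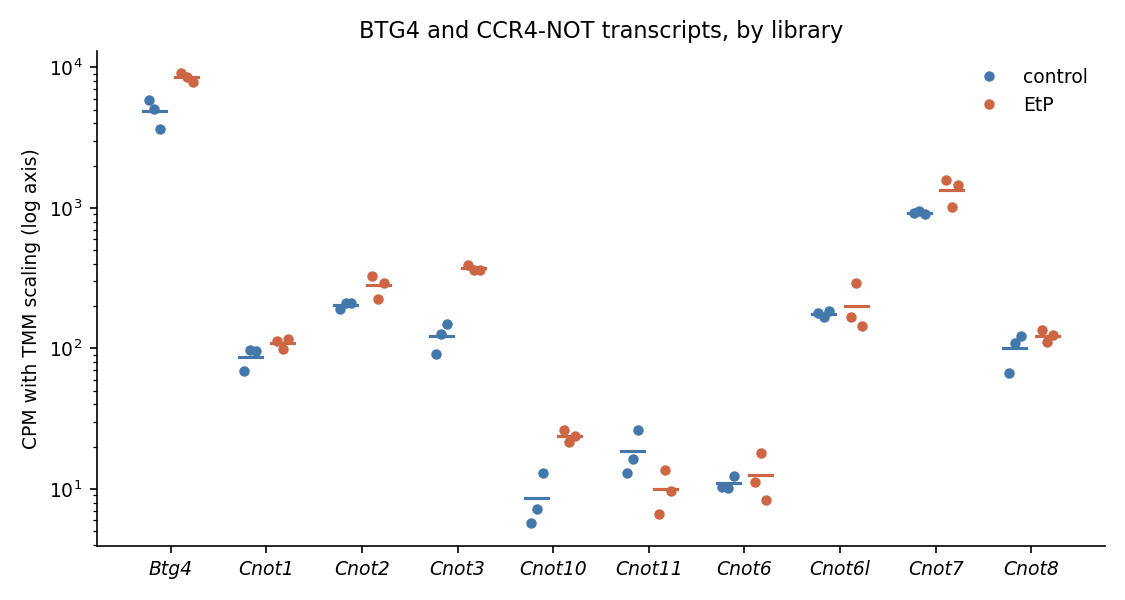
CPM with TMM scaling (log axis) of the 10 members, with 1 point per library and a bar at the mean of each group (n = 3). Btg4, Cnot3 and Cnot10 are higher in each EtP library than in any control library and passed the test, whereas Btg4 and Cnot10 do not pass with library size alone.

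Cnot1, the scaffold on which the complex is built, was at 69.2, 96.9 and 96.0 CPM in control and 113, 99.1 and 117 CPM in EtP. The groups did not overlap, but the difference of 0.33 ± 0.22 on the log2 scale did not pass the test (edgeR adjusted p = 0.276). Non-overlap alone is common here, since 46.8% of tested genes show it on this scale, against 6 of 10 members. In TPM, Cnot1 had 43.4, 62.7 and 55.2 in control and 64.1, 52.4 and 53.85 in EtP, with the groups overlapping. Its weighted transcript length of 1843 to 3480 bases over the 6 libraries was far below the longest annotated transcript of 8390 bases, so its TPM rests on how reads were shared among 17 listed transcripts. The counts of Cnot1, Cnot3, Cnot6 and Cnot8 were fractional in all 6 libraries, as happens where fragments are divided between genes, and those of Btg4, Cnot6l, Cnot10 and Cnot11 were whole.

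In the NOT module 1 of the 2 partners passed the test. Cnot3 had 91.9, 126 and 149.9 CPM in control and 394, 363 and 362 CPM in EtP. Every EtP library was above every control library, with means of 123 ± 29.1 and 373 ± 18.2 CPM (SD, n = 3). The log2 fold change was 1.61 ± 0.23 (SE; edgeR adjusted p = 0.000625), and the call held in each of 17 alternatives, between 0.86 and 1.82 (adjusted p between 1.5e-11 and 0.0133). In TPM it was at 87.4, 133 and 168 in control and 319, 321 and 306 in EtP, again with no overlap. Its rank among all genes by TPM went from between 925 and 1546 in control to between 456 and 487 in EtP.

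Cnot2, which pairs with CNOT3 in the protein complex, had 192, 212 and 209.7 CPM in control and 326, 225 and 294 CPM in EtP. Its difference of 0.46 ± 0.21 did not pass (edgeR adjusted p = 0.122), but DESeq2 called it higher (0.58, adjusted p = 0.0488). In TPM the values were 169, 222 and 218 in control and 200.3, 129 and 192 in EtP. The ratio of Cnot3 to Cnot2 within a library does not depend on scaling between libraries. In TPM it was 0.518, 0.600 and 0.772 in control and 1.59, 2.48 and 1.59 in EtP. Cnot3 was thus the lower of the pair in each control library and the higher in each EtP library, and the same held in estimated counts. This ratio was chosen after the values were seen and was not tested.

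Cnot3 (ENSMUSG00000035632.16, chromosome 7 from 3645268 to 3661109, plus strand) shares 433 exonic bases with Leng1 on the other strand, and 86 with Mir3572, which had 0 counts. Smart-seq2 libraries do not mark strand. Leng1 was assigned 12.9 to 32.1 counts per library and Cnot3 1532 to 4375. The weighted transcript length of Cnot3 was 1551, 1712 and 1853 bases in control and 1328, 1243 and 1504 in EtP, shorter in each EtP library. This measure did not overlap between groups for 4 of 10 members (Btg4, Cnot3, Cnot10 and Cnot6l), against 17% of genes tested. Lengths were shorter in EtP for Cnot3, Cnot10 (2000 to 2147 against 1861 to 1947 bases) and Cnot6l (3277 to 3692 against 3088 to 3259), and longer for Btg4. A shorter estimated length raises TPM relative to counts.

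The pair CNOT10 and CNOT11, which sit together on CNOT1, differed in direction. Cnot10 had 5.70, 7.14 and 12.9 CPM in control and 26.2, 21.4 and 23.9 CPM in EtP, and each EtP library was above each control library. Means were 8.59 ± 3.82 and 23.8 ± 2.36 CPM (SD, n = 3), and the log2 fold change was 1.47 ± 0.32 (SE; edgeR adjusted p = 0.00576). With library size alone it was 0.72 ± 0.34 and did not pass (edgeR adjusted p = 0.0933), and in TPM, where EtP replicate 2 fell below control replicate 3, it was 0.94 ± 0.37 (limma adjusted p = 0.0663). These values rest on 95 to 288 counts per library.

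Cnot11 had 12.9, 16.3 and 26.4 CPM in control and 6.66, 13.7 and 9.61 CPM in EtP. EtP replicate 2 lay above control replicate 1, and the log2 fold change of -0.89 ± 0.34 did not pass (edgeR adjusted p = 0.0717). It passed with library size alone, at -1.65 ± 0.38 (edgeR adjusted p = 0.00416), in TPM, at -1.55 ± 0.42 (limma adjusted p = 0.017), and without control replicate 1 (edgeR adjusted p = 0.0249). With a replicate block, with a minimum of 10 CPM in 3 libraries and with no filter it passed as well (edgeR adjusted p = 0.0152, 0.0357 and 0.0385). In TPM its values were 15.7, 15.9 and 32.95 in control and 3.78, 11.7 and 5.32 in EtP, with no overlap. Counts were 69 to 407 per library.

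Within a library, the ratio of Cnot10 to Cnot11 in TPM was 0.243, 0.400 and 0.378 in control and 3.89, 0.992 and 2.99 in EtP. Cnot10 was thus the lower of the pair in all 3 control libraries, the higher in EtP replicates 1 and 3, and nearly level with Cnot11 in EtP replicate 2. In estimated counts, not set for length, the ratios were 0.442, 0.438 and 0.489 in control and 3.93, 1.56 and 2.48 in EtP. The pair was singled out after the values were seen and was not tested. Cnot10 lies on chromosome 9 and Cnot11 on chromosome 1.

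**Figure D3:**
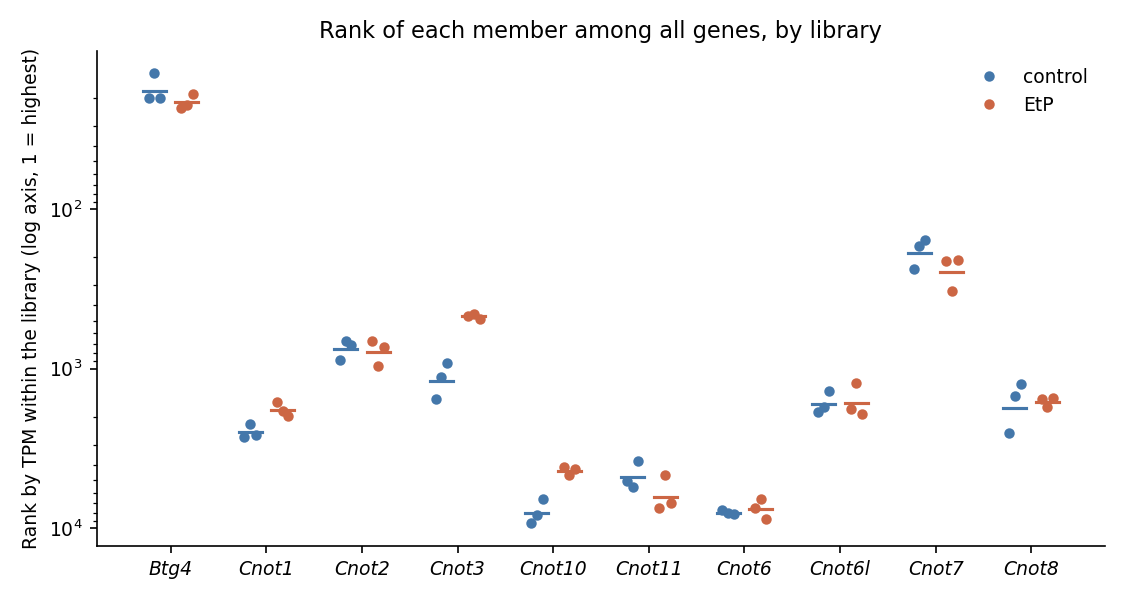
Rank of each member by TPM among all genes of the same library (log axis, 1 is the highest), with 1 point per library and a bar at the mean of each group (n = 3). Cnot1, Cnot3 and Cnot10 rank higher in each EtP library than in any control library, and Btg4 ranks 14 to 23 throughout. For Cnot1 and Cnot10 the TPM values themselves overlap between groups, and Cnot1 (53.8 ± 9.72 and 56.8 ± 6.39 TPM, SD) did not pass the test. A rank also depends on other genes, of which 50.4% of those tested were lower in TPM without overlap. The share of genes whose ranks do not overlap was not computed. EtP libraries had fewer genes detected, which shifts low ranks.

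Among the nucleases, Cnot7 had the highest TPM in every library. CNOT7 and CNOT8 are close paralogs of the CAF1 type, and a complex holds 1 of them. Cnot7 had 913, 949 and 898 CPM in control and 1578, 1020.35 and 1457 CPM in EtP. The EtP libraries were above the controls, widely spread, and the difference of 0.56 ± 0.22 did not pass (edgeR adjusted p = 0.0773). It passed without control replicate 1 or EtP replicate 2 (edgeR adjusted p = 0.0274 and 0.0445) and by DESeq2 (adjusted p = 0.0244), and with library size alone its sign turned (-0.17). In TPM it had 625, 802 and 810.2 in control and 749.8, 449.9 and 758 in EtP. EtP replicate 2 was the lowest of the 6.

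Cnot8 had 66.7, 109.8 and 123 CPM in control and 134, 111 and 126 CPM in EtP, with a difference of 0.30 ± 0.25 (edgeR adjusted p = 0.389). In TPM it had 47.4, 96.7 and 126 in control and 68.7, 57.5 and 76.5 in EtP, where the EtP values lay inside the wide range of the controls. Cnot7 made up 92.9%, 89.2% and 86.6% of the TPM of the pair in control and 91.6%, 88.7% and 90.8% in EtP. The difference in means was 0.777 percentage points (exact two-sided permutation p = 0.8, n = 3 per group; adjusted p = 0.8 over 2 pairs). It was 1.24 points in counts and -0.73 without control replicate 3. With 3 libraries per group the smallest p this test can give is 0.1.

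CNOT6 and CNOT6L are the alternative nucleases of the CCR4 type, and CNOT6L is known as the maternal form in the mouse egg. Cnot6l had 179, 168 and 184 CPM in control and 169, 292 and 144 CPM in EtP. EtP replicate 2 was the highest library and EtP replicate 3 the lowest, and the difference of 0.19 ± 0.27 did not pass (edgeR adjusted p = 0.632). In TPM Cnot6l had 68.0, 83.1 and 113 in control and 55.5, 92.35 and 56.0 in EtP, again overlapping. Cnot6 had 10.4, 10.2 and 12.4 CPM in control and 11.2, 17.9 and 8.36 CPM in EtP, with the same ordering of the EtP libraries and a difference of 0.18 ± 0.30 (edgeR adjusted p = 0.683). In TPM Cnot6 was lower in EtP without overlap, at 3.70, 5.42 and 2.67 against 6.37, 6.75 and 7.46 (limma on log2(TPM + 1), -0.71 ± 0.27, adjusted p = 0.0619). Of all tested genes 50.4% were lower without overlap on that scale, and so were 2 of 10 members, Cnot6 and Cnot11.

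Cnot6l made up 91.4%, 92.5% and 93.8% of the TPM of this pair in control and 93.8%, 94.5% and 95.4% in EtP. The means were 92.6% ± 1.18 and 94.6% ± 0.850 (SD, n = 3), and the difference of 1.98 percentage points did not pass (exact two-sided permutation p = 0.2; adjusted p = 0.4 over 2 pairs). In estimated counts the difference was 0.00356 points.

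By TPM the order of the members in control was Btg4 (5816 ± 541), Cnot7 (746 ± 105), Cnot2 (203 ± 29.6), Cnot3 (129 ± 40.4), Cnot8 (89.9 ± 39.5), Cnot6l (87.9 ± 22.7), Cnot1 (53.8 ± 9.72), Cnot11 (21.5 ± 9.89), Cnot10 (7.55 ± 4.44) and Cnot6 (6.86 ± 0.553; SD, n = 3). Within each control library Cnot3 was above both Cnot8 and Cnot6l, whereas Cnot8 and Cnot6l changed places between libraries, and so did Cnot10 and Cnot6. In EtP, Cnot3 (315 ± 8.43) stood above Cnot2 (174 ± 38.8) in each library. Cnot8 (67.6 ± 9.54) was above Cnot1 (56.8 ± 6.39) in each, and Cnot6l (67.9 ± 21.1) changed places with both. Cnot10 (14.1 ± 2.21) was above Cnot11 (6.94 ± 4.22) in EtP replicates 1 and 3 and level with it in replicate 2 (11.6 and 11.7), and Cnot11 was above Cnot6 (3.93 ± 1.39) in each, by little in replicate 1 (3.78 and 3.70). The 9 subunits summed to 1345 ± 249 TPM in control and 1359 ± 197 in EtP, and the ratio of Btg4 to that sum was 4.45 ± 1.08 and 4.84 ± 0.592.

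The tested genes whose pattern over the 6 libraries was most like that of Btg4 were Ift20, Cphx1 and Lars. Their log2 CPM, centred on its mean, differed from that of Btg4 by a root mean square of 0.07, 0.08 and 0.08 among 11506 named genes. For the other 9 members this distance was 0.32 (Cnot7) to 1.03 (Cnot11). All 6 libraries share the contrast of groups, so the likeness is a description.

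Genes around the complex went both ways. The other subunits, deadenylases, BTG relatives, RNA-binding adapters and tail enzymes came to 47 genes, of which 44 were tested. With TMM scaling 8 passed as higher and 6 as lower, and the median log2 fold change was -0.05. Over all tested genes 12.5% were called higher and 18.1% lower, 30.6% in all, and the list counts below are to be read beside these shares. With library size alone 2 of the listed genes were higher and 24 lower, and without control replicate 2 there were 5 and 3. Cnot4, a ubiquitin ligase that joins the complex loosely, rose from 191, 159.9 and 179 CPM to 317, 321 and 289 CPM (0.81 ± 0.19; edgeR adjusted p = 0.0104). In TPM the groups overlapped for Cnot4, at 81.6, 84.6 and 107.8 in control and 97.4, 99.9 and 105.2 in EtP. Cnot9, a core subunit that binds adaptor proteins, was at 79.2 ± 13.7 and 81.3 ± 3.98 CPM (SD, n = 3). In TPM it had 45.0, 57.2 and 61.6 in control and 25.95, 26.55 and 33.96 in EtP, lower without overlap, as were 50.4% of tested genes. The weighted transcript length of Cnot9 was 2035 to 2914 bases in control and 3023 to 3161 in EtP. It did not overlap between groups, as in 17% of tested genes, and a longer length lowers TPM relative to counts. Cnot9 shares 134 exonic bases with Usp37 on the other strand, which was assigned 3345 to 6275 counts per library.

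In the BTG/TOB family, whose members bind CNOT7 and CNOT8 as BTG4 does, 0 of 5 passed as higher and 2 as lower by edgeR, and the median was -1.07. Tob2 was at 28.2 ± 14.0 CPM in control and 28.1 ± 6.85 in EtP, Btg2 at 7.16 ± 2.77 and 6.38 ± 0.698 and Tob1 at 2.88 ± 1.92 and 1.37 ± 0.339 (SD, n = 3). Those that fell, named after their values were seen, were Btg1 (3.32 ± 0.948 to 0.617 ± 0.251 CPM) and Btg3 (2.03 ± 0.693 to 0.156 ± 0.203 CPM). In EtP libraries Btg1 had 4, 8 and 7 counts and Btg3 4, 0 and 1.38. Both passed the filter on low counts only through the control libraries, where they were high. A call for either could therefore only be lower, and these 2 calls are no evidence about the family.

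Of 8 other deadenylases 0 passed as higher and 2 as lower by edgeR, and the median was 0.19. The poly(A) nuclease subunits Pan2 and Pan3 were at 164 ± 55.8 and 259.8 ± 27.8 CPM in control and 272 ± 67.2 and 294 ± 22.2 in EtP, and Angel2 at 538 ± 50.8 and 735 ± 140.2, none of which passed. Angel1 fell from 59.5 ± 5.55 to 33.2 ± 3.55 CPM and Pde12, which acts in mitochondria, from 5.01 ± 2.20 to 1.84 ± 0.751 (both named after their values were seen). Pde12 shares 527 exonic bases with Arf4, and Btg3 695 with Cxadr, each on the other strand. Of 17 tested proteins that bring the complex to messages or act beside it, 2 passed as higher and 1 as lower, and the median was -0.28. The eIF4E-binding Eif4enif1 rose from 187, 375 and 533 to 708, 589 and 924 CPM (1.02 ± 0.34; edgeR adjusted p = 0.0447). Its TPM overlapped between groups, at 75.5, 189.1 and 305.5 in control and 203.6, 170.7 and 310.2 in EtP. Nanos2 was at 86.7 ± 23.9 and 99.6 ± 13.0 CPM and the repressor Pum2 at 72.2 ± 16.0 and 67.6 ± 14.6. The antisense gene Gm45058 shares 766 of the 1563 exonic bases of Nanos2, and without strand the reads within these shared bases cannot be told apart. Gm45058 was assigned 14.6 to 325 counts per library and Nanos2 766 to 1692. The helicase Ddx6 was also higher in CPM, but its groups overlapped in TPM. Zfp36, which binds AU-rich elements, was lower, on 5 to 12.78 counts per EtP library.

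Of 12 tested genes for poly(A)-binding proteins and tail-modifying enzymes 5 passed as higher and 1 as lower, and the median log2 fold change was 0.27. Pabpn1l, the egg's poly(A)-binding partner of BTG4, had 44.8, 38.3 and 29.3 CPM in control and 342, 267 and 253 in EtP. Cpeb1, which binds the cytoplasmic polyadenylation element, had 53.3, 62.7 and 67.4 CPM in control and 332, 231 and 334 in EtP. For each of these genes all 3 EtP libraries were above all 3 controls (edgeR adjusted p = 2.17e-05 and 6.97e-05). Tent4a, a non-canonical poly(A) polymerase, rose from 348 ± 23.0 to 643 ± 106.9 CPM (SD, n = 3; 0.88 ± 0.21; edgeR adjusted p = 0.00905). In TPM the groups overlapped for Tent4a, at 114, 160.7 and 173.2 in control and 151.4, 195.7 and 167.8 in EtP. Those of Pabpn1l and Cpeb1 did not overlap in TPM either. Papolg and the uridylyltransferase Tut7 also rose in CPM, with groups that overlapped in TPM. Pabpc1, the main somatic poly(A)-binding protein, fell from 3.54 ± 1.04 to 1.45 ± 0.278 CPM.

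**Figure D4:**
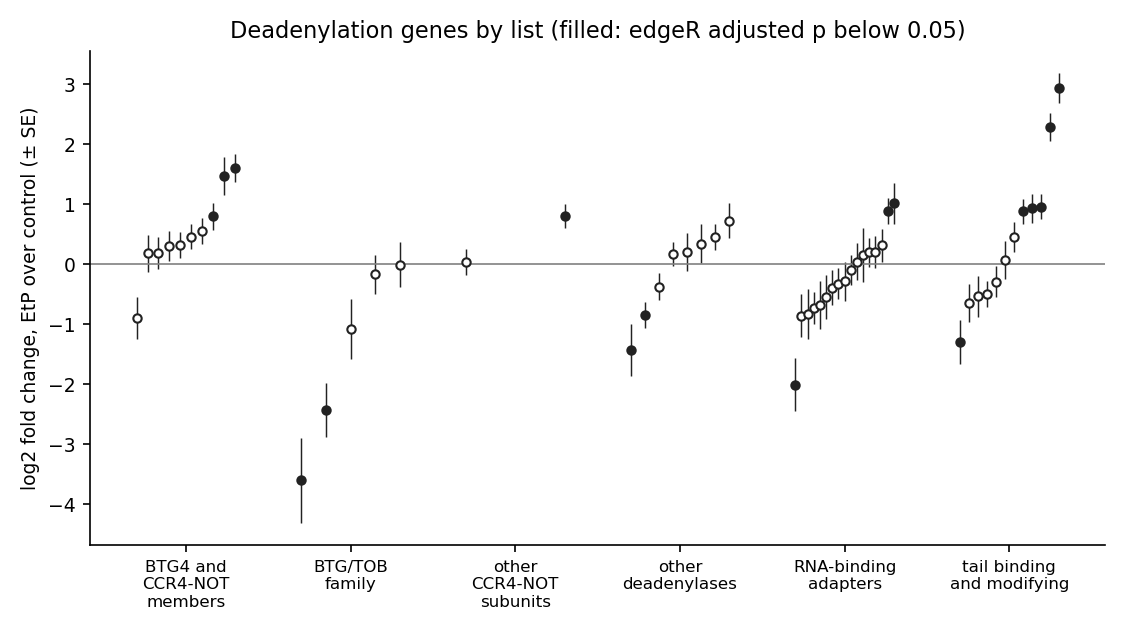
Log2 fold change, EtP over control, with its standard error for the 10 members and for the tested genes of 5 further lists, where each point is a gene and filled points passed the edgeR test (3 libraries per group). With TMM scaling members lie between -0.89 and 1.61, and the tail-binding and tail-modifying list holds the largest increase, Pabpn1l at 2.94.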

How the data were processed

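Polyadenylated RNA was copied from an oligo-dT primer and amplified (Smart-seq2), sheared and sequenced from both ends, per the labels' protocols. This method does not mark strand and adds no molecular identifiers, so copies made by PCR are not independent molecules. The submitters' processing notes name cutadapt 1.16, STAR and mm10. The version of STAR and the counting program: not given in the sources used here. Gene-level expected counts were deposited; 10.6% to 16.0% of them per library were not whole (tolerance 0.005), and they were rounded for testing. TPM were deposited as well and used for levels, for paralog shares and for an alternative test. FPKM were deposited and not used. Deposited transcript lengths are weighted by abundance within each library.

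The 3 EtP libraries were compared with the 3 control libraries in edgeR 4.0.16 (R 4.3.3) with filterByExpr, TMM, a robust quasi-likelihood fit with no covariate and Benjamini-Hochberg adjustment over all tested genes at 0.05. SE is the absolute log2 fold change over the square root of F. Paralog shares were compared by exact permutation. The fit was also run on counts simulated from its own dispersions and effective library sizes. No difference in RNA composition was simulated, so that run cannot speak to the choice of scaling. Alternatives were DESeq2 1.42.0, limma 3.58.1 on voom values and on log2 TPM (mean of at least 1 TPM), other scalings and filters, removal of mitochondrially encoded genes, a replicate block and leaving out each library. Members and lists were chosen with earlier results of these data known. All members are named, of each further list the 3 genes of highest mean CPM, and the 3 genes nearest to Btg4. Other genes that passed the test in a list were named after their values were seen. Positions are from GENCODE M21 (GRCm38, the assembly of mm10), where Cnot10 was matched without its version. Figures were drawn with matplotlib 3.10.9.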

Additional observations from a re-analysis of the deposited data

How the results depend on the processing

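Of 170 member fold changes under alternatives 129 kept their direction and their side of the threshold, 10 lost and 11 gained a call, and 20 changed sign, in Cnot1, Cnot2, Cnot6, Cnot6l, Cnot7 or Cnot8. With library size alone members numbered 1 higher and 1 lower, other deadenylation genes 2 and 24 and all genes 545 and 7617 (1798 and 2601 with TMM), so that decreases were 93.3% of calls against 59.1%. With limma on log2(TPM + 1) and log2(TPM + 0.1) members gave 1 and 1 each, other genes 2 and 15 each, and all genes 667 and 5377, and 671 and 5435, with decreases at 89.0% of calls. Keeping genes of at least 10 CPM in 3 libraries, 2 members were higher (Btg4 was lost) and 1, Cnot11, lower, 3 other genes were lower, and 978 and 1454 genes were called, from a smaller set of 6986 tested. Without a filter 1 member, Cnot11, was lower. DESeq2 called 5 members higher, and decreases were 49.9% of its calls. The cause of these differences was not tested.

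Signs turned as follows. With library size alone Cnot1, Cnot2, Cnot6, Cnot6l, Cnot7 and Cnot8 were at -0.41, -0.27, -0.57, -0.56, -0.17 and -0.45. On log2(TPM + 1) Cnot2, Cnot6, Cnot6l, Cnot7 and Cnot8 were at -0.24, -0.71, -0.38, -0.22 and -0.31, and on log2(TPM + 0.1) at -0.24, -0.84, -0.38, -0.22 and -0.31. Under the 10 CPM minimum Cnot6 and Cnot6l were at -0.075 and -0.069. None of these passed.

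Leaving out each library gave 2 to 4 members higher and 0 to 1 lower, 5 to 10 other genes higher and 3 to 9 lower, and 1096 to 2637 genes higher and 1659 to 2887 lower over the whole table. Both of the last counts were lowest without EtP replicate 1, 1729 and 1731 genes were lower without EtP replicates 2 and 3, and the member called lower without control replicate 1 was Cnot11. Cnot6 ranged from -0.12 to 0.44 and Cnot6l from -0.14 to 0.42, both negative without EtP replicate 2, and the Cnot7 share from -0.73 to 2.45 points.

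Whether replicate numbers pair the libraries was not settled by their correlations. Deviations of same-numbered libraries correlated at 0.161, 0.0043 and 0.328. Control replicates 1 and 3 correlated best with their own number, and control replicate 2 did not. With a replicate block 3 members were higher and 1 lower, Cnot11 at -0.89 (edgeR adjusted p = 0.0152), and 2295 and 3022 genes were called; it changed no other member's call.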
